A study of Mus musculus with 6 samples.

Results

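Immediate early genes are the genes that a stimulated cell transcribes within minutes, without first making new protein. The set described here holds 34 such genes and other activity-induced genes, given as a list of gene names that was drawn up with earlier results of these data known. Each gene was represented by the array row that names it alone, and by the brightest such row where there were several. This gave 33 of the 34 genes, out of 22180 genes with a row of their own. The missing one was Fosl1, which shares its row with Ccdc85b and is given no value. Dusp6 and Tiparp had a dimmer second row each.

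Both groups were male C57BL/6J mice, an inbred laboratory strain, whose tissue is labelled as whole hippocampus. The ethanol group received ethanol at 2.5 g/kg in 0.15 M NaCl under the skin, and the saline group received saline. Injections were given on postnatal days 4 and 7, as a pair separated by 2 hours on each day. There were 3 arrays per group, each of RNA pooled from 3 mice, so that 18 mice stand behind 6 arrays. The age at tissue collection is given as 21 days in one label and as day 70 in another. Values are log2 expression per array row as deposited, where a difference of 1 is a doubling. A pool averages its mice, and every p-value here rests on variation among pools.

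In neurons, calcium entry through synaptic receptors and channels activates kinases that phosphorylate the factors CREB and SRF, which are already bound at the promoters of these genes. The first products are mostly transcription factors, among them FOS, EGR1, NPAS4 and the NR4A nuclear receptors. Others act at the synapse, such as ARC, or switch the kinases off again, such as the DUSP phosphatases. In the hippocampus these genes are widely used as reporters of recent neuronal activity. In bulk tissue, fewer responding cells and less RNA per cell cannot be told apart.

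Array medians lay between 6.55 and 6.66, and correlations between arrays across rows lay between 0.987 and 0.992. Saline array 1 stood apart in some lists of markers of other cells. It was the highest array for 6 of 8 interneuron, 4 of 5 thalamic and 3 of 3 oligodendrocyte precursor markers. The same held for 4 of 7 dentate granule, 3 of 5 CA1 and 4 of 7 CA3 and CA2 markers. So it did for 3 of 6 microglial, 2 of 3 striatal and 2 of 3 blood markers, and for 21.2% of all genes. Fewer were highest there in other lists: 2 of 9 cerebellar granule, 2 of 7 endothelial and 1 of 8 telencephalic excitatory markers. Of the astrocyte and meningeal markers 1 of 6 each was, and of the Purkinje, oligodendrocyte, mural, choroid plexus and pan-neuronal markers 0. In the Purkinje list, name matching put Ptpru in place of the listed Pcp2, and Ptpru was highest on ethanol array 1. Dsp, C1ql2, Iyd and Cpne4, highest on saline array 1, averaged 6.43, 6.47, 6.28 and 6.16, below the median row. On that array the interneuron peptide gene Sst was at 9.54 and the thalamic factor Tcf7l2 at 8.47, whereas no other array passed 8.66 for Sst or 7.17 for Tcf7l2. Genes that define cerebellar neurons were bright in tissue labelled hippocampus. Gabra6, a GABA-A subunit of granule cells, averaged 12.17, and Car8, a Purkinje cell gene, averaged 12.44. The cerebellar granule list averaged 10.46 to 10.59 over the arrays. The dentate granule list averaged 7.59 to 7.68, the CA1 list 7.54 to 7.65 and the CA3 and CA2 list 7.72 to 7.81. The first of these is raised by Calb1, at 12.28, which is on the Purkinje list too. The other dentate granule genes averaged 5.6 to 8.2. Chgb, at 11.26, raises the CA3 and CA2 list, whose other genes averaged 6.2 to 7.9. Of 8 measured genes on the telencephalic excitatory list, Slc17a7, Neurod2 and Camk2a averaged 10.95, 10.58 and 9.76. Neurod6, Fezf2, Emx1, Tbr1 and Emx2 averaged 6.76, 6.45, 6.39, 5.74 and 5.28, where the median row was at 6.6. Whether cerebellar neurons express Slc17a7, Neurod2 and Camk2a was not tested, so these are not read as a sign of telencephalic tissue. Probes differ in binding strength, so these levels do not rank transcripts. These marker genes were picked after their values were seen.

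No immediate early gene passed the adjusted threshold between ethanol and saline. The test was limma, a linear model whose variance estimate borrows from all rows, with p-values adjusted by the Benjamini-Hochberg method over all 41345 rows. It called 0 of the 33 members at an adjusted p under 0.05, and the smallest adjusted p among them was 0.857. Over all genes it called 0 as well (0.0%). At an unadjusted p under 0.05, 2 members were lower in ethanol and 0 were higher, beside 1.98% of all genes lower and 1.2% higher. In 3 members every ethanol array lay below every saline array (4.72% of all genes), and in 1 every ethanol array lay above (5.74% of all genes). By sign alone 14 members were higher and 19 lower, with a median difference of -0.05, against 0.02 over all genes. The lower counts are 6.06% and 9.09% of the members, and each rests on 3 genes or fewer.

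**Figure D1:**
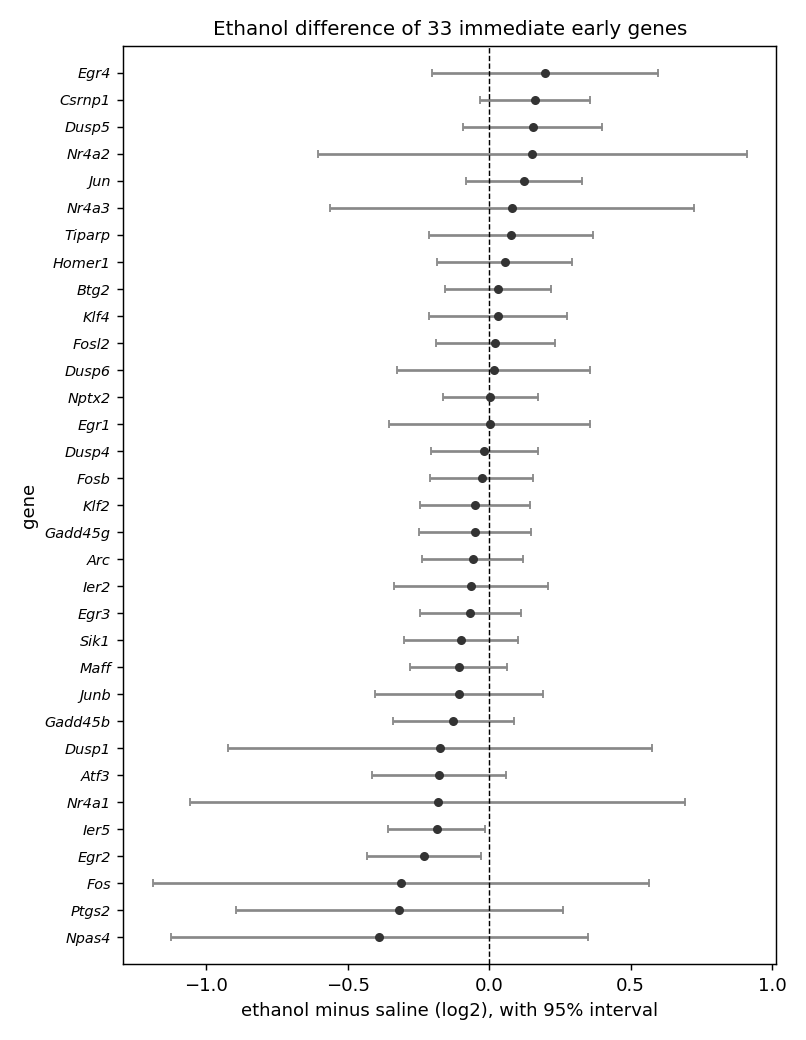
Difference between the mean of 3 ethanol arrays and the mean of 3 saline arrays (x axis, log2) for each of the 33 measured immediate early genes, with the 95% interval from limma as a bar. The intervals of 31 genes include 0; those of Egr2 and Ier5, at -0.23 and -0.18, end just below 0 before any adjustment, and the widest belong to Fos, Nr4a1 and Nr4a2.

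What the members did show was a wide spread between arrays, in a few genes. The highest array exceeded the lowest by more than 1 on the log2 scale in 7 of the 33 members (21.2%), against 0.870% of all genes. This range is taken over the arrays of both groups together. These were Npas4, Fos, Nr4a1, Nr4a2, Dusp1, Ptgs2 and Nr4a3, and they were looked at more closely after their values were seen. In 24 others the range stayed under 0.5, in Egr4 and Egr1 it was 0.71 and 0.50, and the median range of the members, 0.32, was close to the 0.30 of all genes. Ethanol array 1 was the lowest of the 6 arrays for 11 members and the highest for 0, where it was the lowest for 9.88% of all genes and the highest for 13%. Saline array 2 was the highest for 10 members, or 30.3%, against 14.2% of all genes. The members' median deviation from their 6-array means was -0.05, -0.03 and 0.06 on ethanol arrays 1 to 3 and -0.04, 0.05 and 0.03 on saline arrays 1 to 3.

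**Figure D2:**
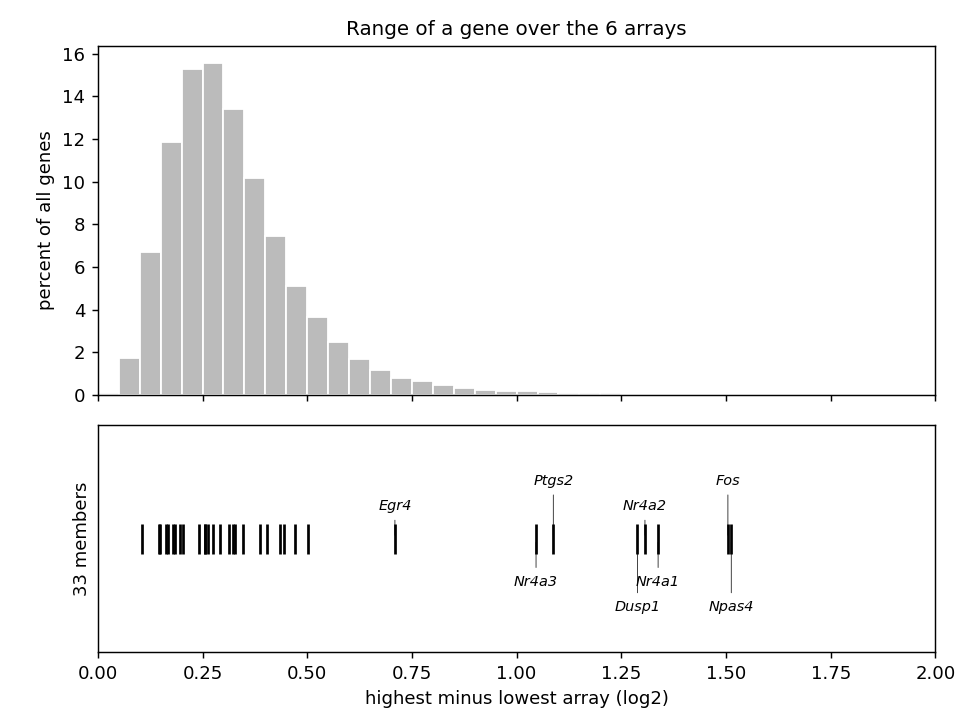
Highest minus lowest of the 6 arrays, on the log2 scale, as the percent of 22180 genes in bins of 0.05 (upper panel, bars) and as a tick for each of the 33 members (lower panel). Most members lie where most genes lie, and 7 lie beyond 1; 6 of all genes lie beyond the end of the axis at 2 and are not drawn, and 0 members do.

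Fos, Npas4, Nr4a1 and Dusp1 varied together. They encode the AP-1 subunit FOS, the activity-dependent factor NPAS4, the orphan nuclear receptor NR4A1 and a phosphatase that inactivates MAP kinases. Their promoters are shown because these 4 genes moved in step, and because the CRE, the site that CREB binds, is the textbook route from activity to such genes. Each run is the 250 bases before the start that the RefSeq promoter table uses on build GRCm38.p6, 5′ to 3′ on the strand of the gene, with every TGACG (the core of the CRE, read on both strands) in capitals. The Fos window is chr12:85473640-85473889, plus strand; that of Npas4 is chr19:4989972-4990221, minus strand; that of Nr4a1 is chr15:101266596-101266845, plus strand; and that of Dusp1 is chr17:26508473-26508722, minus strand. The Npas4 and Nr4a1 windows lie inside the spans that RefSeq gives those genes, chr19:4984353-5003439 and chr15:101253902-101274795, so they belong to an inner start of each.
Fos: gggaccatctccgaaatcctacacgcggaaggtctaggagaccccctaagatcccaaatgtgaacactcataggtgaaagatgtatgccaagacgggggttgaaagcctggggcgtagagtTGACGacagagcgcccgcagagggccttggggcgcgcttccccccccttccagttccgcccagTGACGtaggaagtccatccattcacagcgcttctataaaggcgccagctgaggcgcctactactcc
Npas4: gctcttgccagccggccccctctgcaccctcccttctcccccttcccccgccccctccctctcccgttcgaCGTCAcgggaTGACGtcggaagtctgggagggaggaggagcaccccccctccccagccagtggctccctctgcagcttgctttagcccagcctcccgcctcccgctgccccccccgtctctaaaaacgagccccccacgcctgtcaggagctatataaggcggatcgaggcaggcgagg
Nr4a1: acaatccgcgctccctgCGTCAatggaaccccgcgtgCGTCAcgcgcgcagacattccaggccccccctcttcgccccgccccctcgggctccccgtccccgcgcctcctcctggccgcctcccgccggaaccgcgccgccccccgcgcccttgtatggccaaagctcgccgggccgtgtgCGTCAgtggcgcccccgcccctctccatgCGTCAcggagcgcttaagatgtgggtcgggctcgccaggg
Dusp1: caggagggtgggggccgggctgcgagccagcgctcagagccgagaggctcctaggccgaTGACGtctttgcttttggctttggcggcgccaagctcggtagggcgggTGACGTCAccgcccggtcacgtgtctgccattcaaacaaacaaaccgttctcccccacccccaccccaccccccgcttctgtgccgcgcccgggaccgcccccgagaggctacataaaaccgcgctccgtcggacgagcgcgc

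The core occurs 2 times in the Fos window, 2 times in Npas4, 4 times in Nr4a1 and 3 times in Dusp1. In Dusp1 a pair of them overlaps to form the full palindrome TGACGTCA, at positions -143 to -136 counted from the start. Of the 26 members with a promoter in the RefSeq table, 18 (69.2%) held TGACG in at least 1 of their windows, against 19.8% of 27025 genes. The full palindrome stood in 3 (11.5%, against 1.77% of genes), in Btg2, Dusp1 and Maff. The CArG box, which SRF binds, stood in Dusp5 and Egr2 (7.69%, against 1.62%). Only the 250 bases before each start were searched, so a site farther away would be missed. The 8 members without a RefSeq promoter, among them Egr1, Egr3 and Arc, were not searched at all. The AP-1 site TGANTCA stood in Csrnp1 alone and the EGR site GCGTGGGCG in Maff alone (3.85% each, against 7.82% and 0.622%). Motifs were searched on both strands, and each full palindrome also counts as cores. These matches describe letters in a window and show no binding, and base composition was not matched.

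Fos was at 7.17, 7.75 and 8.22 in ethanol arrays 1 to 3, against 7.39, 8.68 and 8.01 in saline arrays 1 to 3. Its highest array stood 2.84-fold above its lowest. Saline array 2 was the highest and ethanol array 1 the lowest, and the groups overlapped. The difference was -0.31 ± 0.37 (log2, ± SE, 3 arrays against 3; adjusted p = 0.903 in limma), with a 95% interval from -1.19 to 0.57.

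Npas4 stood at 6.76, 7.48 and 7.54 in ethanol, against 7.30, 8.27 and 7.37 in saline. Again ethanol array 1 was the lowest and saline array 2 the highest, 2.85-fold apart. The difference of -0.39 ± 0.31 (adjusted p = 0.869 in limma) had an interval from -1.13 to 0.35, and leaving out 1 array it was -0.56 (without saline array 1) to -0.08 (without saline array 2). Nr4a1 had values of 8.28, 8.84 and 9.25 in ethanol and 8.27, 9.61 and 9.03 in saline. Array 1 was the low one in each group. Its difference was -0.18 ± 0.37 (adjusted p = 0.945 in limma). Dusp1 read 9.09, 9.82 and 10.11 in ethanol and 9.47, 10.38 and 9.70 in saline, with a difference of -0.17 ± 0.32 (adjusted p = 0.938 in limma). In all 4 genes saline array 2 was the highest array, in 3 of them ethanol array 1 was the lowest, and in Nr4a1 saline array 1 lay just below it.

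The within-group SD, pooled over both groups, was 0.59 for Fos, 0.59 for Nr4a1, 0.50 for Dusp1 and 0.49 for Npas4, against a median of 0.11 over all genes. All 4 lay at or above the 99.8 percentile of genes by that measure. Taking the 15 pairs of arrays, 14 were ordered as in Fos for each of Npas4, Nr4a1 and Dusp1. Fosb, a close relative of Fos, kept the order in all 15, and Junb, a partner of FOS in AP-1, kept it in 13. At least 13 pairs were ordered as in Fos in 6 of the 33 members (18.2%, Fos itself included), against 1.91% of all genes. The first 4 genes were put together after their values were seen, so their agreement with Fos is a description and no test. The size of the movement differed: Fosb ranged over 0.15 and Junb over 0.44, whereas Fos ranged over 1.5. Fosb averaged 6.53 in ethanol and 6.56 in saline, below the median row at 6.6, so its order rests on small differences at a low level. The mean of 5 pan-neuronal markers was 11.03 to 11.19 in ethanol and 10.88 to 11.09 in saline, and saline array 2, the highest for Fos, was the lowest for these. Endothelial markers, 7 of 7 measured, averaged 7.59 to 7.75 in ethanol and 7.48 to 7.72 in saline, also with saline array 2 the lowest. Astrocyte markers (10.21 to 10.34 in ethanol, 10.07 to 10.24 in saline) were lowest there too, as were the interneuron, Purkinje and blood lists. So were 29.7% of all genes, the largest share of the 6 arrays. The remaining marker lists were lowest on other arrays, such as CA1, at 7.59 on saline array 2 and 7.54 on saline array 3. Saline array 2 also had the highest median over rows, 6.66, and the smallest SD over rows, 1.97. The part of cell composition in the spread was not tested.

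**Figure D3:**
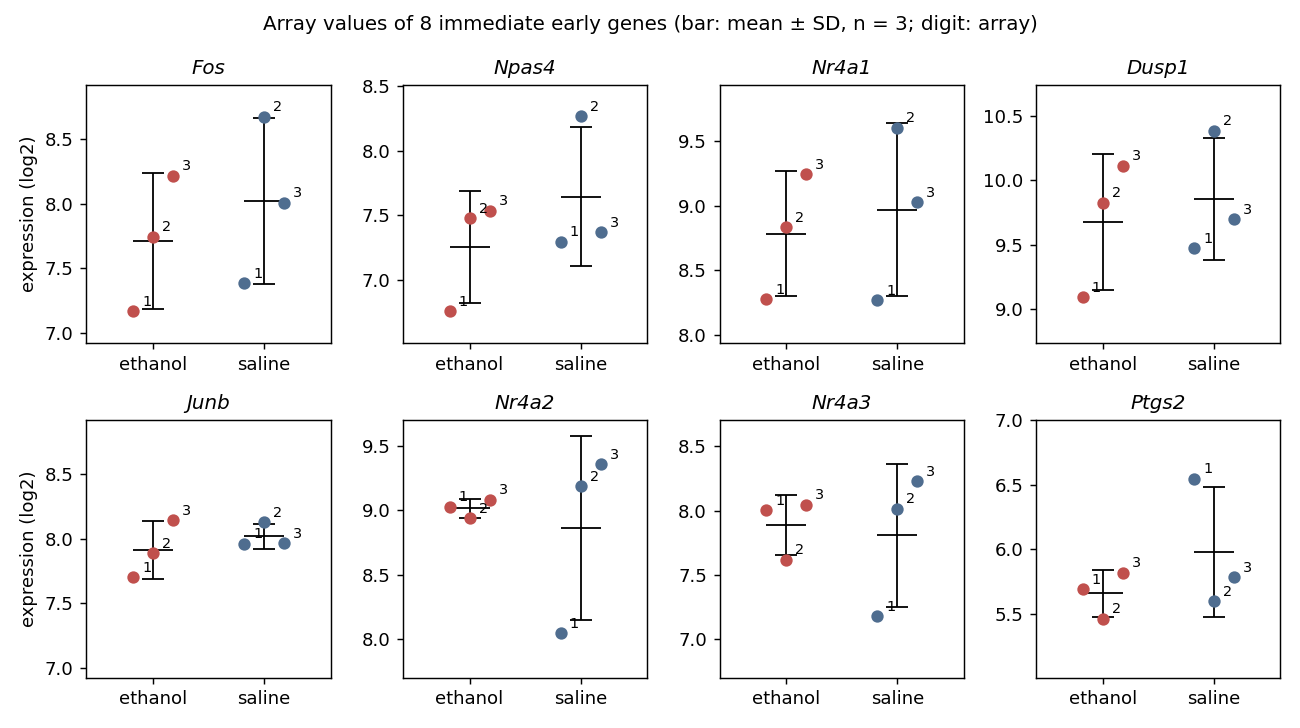
Expression (y axis, log2, each panel spanning 2 units) of 8 immediate early genes on the 3 ethanol arrays and the 3 saline arrays; points are arrays, digits give the array number and bars the mean ± SD (n = 3). Fos, Npas4, Nr4a1 and Dusp1 are high on saline array 2 and low on array 1 of both groups; Nr4a2 and Nr4a3 are low, and Ptgs2 high, on saline array 1.

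Nr4a2 and Nr4a3, orphan nuclear receptors that activity induces like Nr4a1, were lowest on saline array 1, as Nr4a1 was. Their next lowest array was ethanol array 2 and their highest saline array 3, whereas in Nr4a1 these were ethanol array 1 and saline array 2. The promoter window of Nr4a2 is shown for comparison with the first set, marked in the same way. It lies at chr2:57124004-57124253, minus strand, and holds 4 cores.
Nr4a2: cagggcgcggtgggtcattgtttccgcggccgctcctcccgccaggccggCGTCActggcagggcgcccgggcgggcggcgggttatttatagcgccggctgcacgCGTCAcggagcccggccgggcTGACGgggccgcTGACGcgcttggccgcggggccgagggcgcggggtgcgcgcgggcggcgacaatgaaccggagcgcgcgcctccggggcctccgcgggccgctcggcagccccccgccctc

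Nr4a2 was at 9.03, 8.94 and 9.08 in ethanol, against 8.05, 9.19 and 9.36 in saline. The ethanol arrays lay close together, while saline array 1 was far below every other array. The difference of 0.15 ± 0.32 (adjusted p = 0.946 in limma) became -0.25 without saline array 1 (unadjusted p = 0.0392, adjusted p = 0.515 in limma). Nr4a3 read 8.0, 7.62 and 8.05 in ethanol and 7.18, 8.01 and 8.23 in saline. Its difference was 0.08 ± 0.27 (adjusted p = 0.963 in limma), and -0.23 without saline array 1. Egr4 was also lowest on saline array 1, at 6.81, where the other saline arrays were at 7.39 and 7.32 and the ethanol arrays at 7.22, 7.51 and 7.38, and without it the difference was 0.01. Ptgs2, the inducible cyclooxygenase of prostaglandin synthesis, was highest there. It stood at 5.69, 5.46 and 5.82 in ethanol and at 6.55, 5.6 and 5.78 in saline, with a difference of -0.32 ± 0.24 (adjusted p = 0.866 in limma) that became -0.03 without saline array 1. The interneuron and thalamic markers named above were highest on that same array, the interneuron list averaging 8.43 to 8.48 in ethanol and 8.34 to 8.71 in saline (8 of 8 measured), and the thalamic list 8.08 to 8.17 in ethanol and 8.14 to 8.48 in saline (5 of 5 measured). Their part in these values was not tested.

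Among the EGR zinc finger factors, Egr2 was the member with the smallest p. The gene lies at chr10:67534469-67542188 on GRCm38.p6. It was at 6.67, 6.55 and 6.47 in ethanol, against 6.80, 6.85 and 6.73 in saline. All 3 ethanol arrays lay below all 3 saline arrays. The difference was -0.23 ± 0.08 (unadjusted p = 0.0299, adjusted p = 0.857 in limma), a small one, with an interval from -0.43 to -0.03. Egr1, the family member most used as an activity reporter, averaged 8.13 ± 0.25 in ethanol and 8.13 ± 0.18 in saline (SD, n = 3). Its values were 7.88, 8.12 and 8.38 in ethanol and 8.31, 8.12 and 7.95 in saline. Its difference was 0.00 ± 0.15 (adjusted p = 0.999 in limma), and the interval from -0.35 to 0.36 shows how far these arrays could miss one. Egr1 and Fos did not follow one order: saline array 1 was second highest for Egr1 and second lowest for Fos. Egr3 was flat, with a range of 0.18 over the 6 arrays and a difference of -0.07 ± 0.08. Egr4 differed by 0.20 ± 0.17.

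The remaining AP-1 genes each ranged over less than 0.5, Junb and Atf3 the most, at 0.44 and 0.43. Junb was at 7.70, 7.89 and 8.15 in ethanol, against 7.96, 8.13 and 7.97 in saline, with a difference of -0.11 ± 0.13 (adjusted p = 0.902 in limma). Fosb stood at 6.48, 6.52 and 6.59 in ethanol and at 6.50, 6.63 and 6.54 in saline, and its groups overlapped. Jun, the main partner of the FOS proteins, was at 9.19, 9.18 and 9.17 in ethanol and at 9.01, 9.20 and 8.96 in saline. The ethanol arrays lay close together, while saline array 2 was just above them and the other saline arrays lay below, for a difference of 0.12 ± 0.09. Atf3, a stress-induced factor that pairs with JUN proteins, read 7.64, 7.55 and 7.38 in ethanol and 7.60, 7.69 and 7.81 in saline (-0.18 ± 0.10). Maff, a small Maf factor without a transactivation domain, was the 1 AP-1 gene whose groups did not overlap. Its ethanol arrays were at 6.98, 6.96 and 7.02, all below the saline arrays at 7.06, 7.16 and 7.07, by a difference of -0.11 ± 0.07 (adjusted p = 0.859 in limma). Fosl2 differed by 0.02 ± 0.09.

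**Figure D4:**
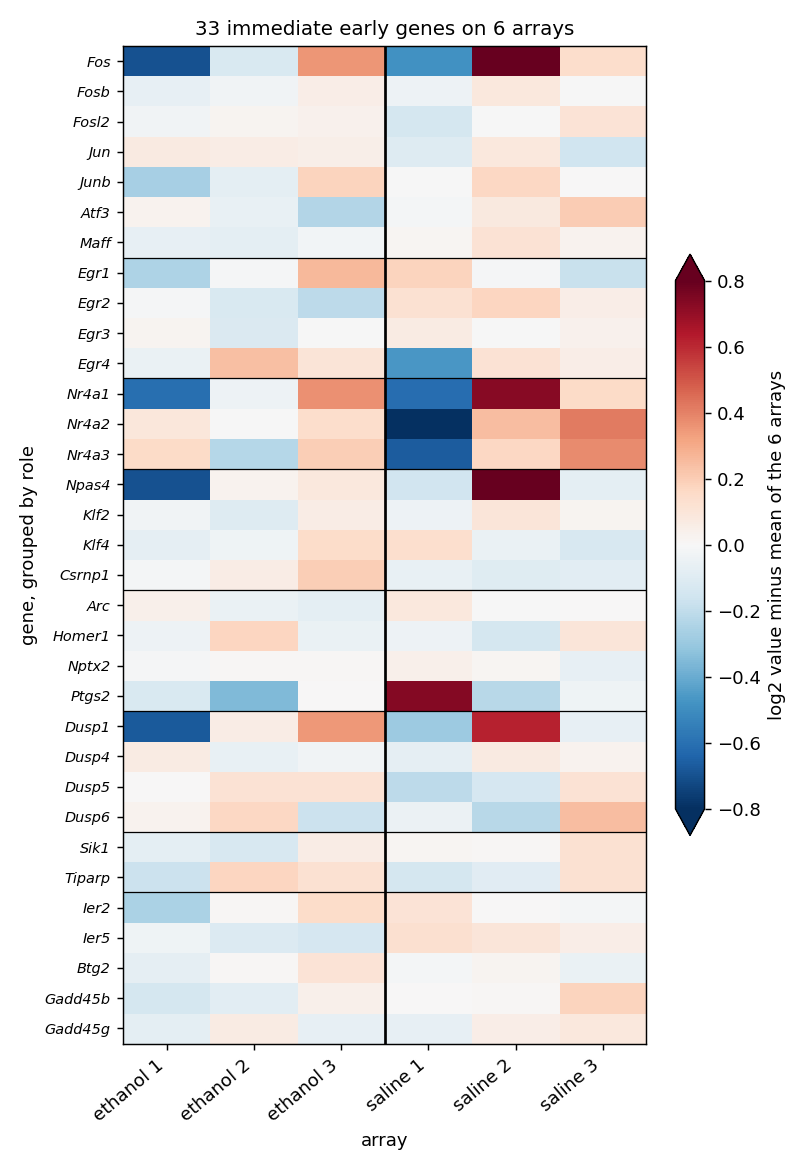
Log2 value minus the mean of the 6 arrays (colour, red above and blue below, cut at 0.8 either way) for 33 immediate early genes in rows, grouped by role, on ethanol arrays 1 to 3 and then saline arrays 1 to 3 in columns. Fos, Nr4a1, Npas4 and Dusp1 share deep red on saline array 2 and blue on ethanol array 1, Nr4a2 and Nr4a3 are blue on saline array 1, and most other rows stay pale.

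Of the other factors, Csrnp1 was the 1 member with every ethanol array above every saline array. Csrnp1 is a nuclear protein induced by AXIN1 and by growth signals. It was at 6.71, 6.78 and 6.92 in ethanol, against 6.66, 6.62 and 6.63 in saline, for a difference of 0.16 ± 0.08 (unadjusted p = 0.0879, adjusted p = 0.857 in limma). The Krüppel-like factors Klf2 and Klf4, known from endothelium as well as from neurons, differed by -0.05 ± 0.08 and 0.03 ± 0.10.

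The effectors at the synapse were level. Arc, whose protein governs AMPA receptor endocytosis, was at 8.97, 8.88 and 8.85 in ethanol, against 9.02, 8.93 and 8.94 in saline. Its 6 arrays lay within 0.17 of each other, a range at the 12.0 percentile of all genes, and its difference was -0.06 ± 0.08 (adjusted p = 0.910 in limma). Only 4 of the 15 array pairs were ordered in Arc as in Fos. Homer1, a scaffold that links metabotropic glutamate receptors to calcium stores and whose short form is the activity-induced one, was at 7.33, 7.54 and 7.32 in ethanol and at 7.33, 7.23 and 7.47 in saline (0.05 ± 0.10). A row for the whole gene does not separate the short form from the long ones. Nptx2, a secreted pentraxin that clusters AMPA receptors, had the narrowest range of the members, 0.11, and a difference of 0.00 ± 0.07, with an interval from -0.17 to 0.17.

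Apart from Dusp1, the MAP kinase phosphatases showed no array that stood far out. Dusp5, a nuclear phosphatase of ERK, was at 9.82, 9.93 and 9.93 in ethanol, against 9.61, 9.68 and 9.93 in saline. Saline array 3 reached the ethanol level, and the difference was 0.15 ± 0.10 (adjusted p = 0.859 in limma). Dusp6, its cytoplasmic relative, varied over 0.47 without regard to group and differed by 0.02 ± 0.14, and Dusp4 by -0.02 ± 0.08. The second, dimmer row of Dusp6 differed by 0.01 ± 0.08. Sik1, a salt-inducible kinase that restrains CREB coactivators, differed by -0.10 ± 0.08. Tiparp, a mono-ADP-ribosyltransferase, differed by 0.08 ± 0.12, and by 0.02 ± 0.08 in its second row.

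Among the genes of growth and damage responses, Ier5 was the other member with an unadjusted p under 0.05. Ier5 encodes a nuclear regulator of the heat shock response and lies at chr1:155096367-155099636. It was at 7.76, 7.68 and 7.66 in ethanol, against 7.92, 7.89 and 7.84 in saline. Every ethanol array was below every saline array, and the arrays of each group lay close together. The difference of -0.18 ± 0.07 (unadjusted p = 0.0382, adjusted p = 0.857 in limma) had an interval from -0.36 to -0.01. Gadd45b, which takes part in stress signalling and DNA demethylation, was at 8.33, 8.38 and 8.51 in ethanol and at 8.47, 8.48 and 8.65 in saline (-0.13 ± 0.09). Its relative Gadd45g differed by -0.05 ± 0.08, Ier2 by -0.06 ± 0.12 and the antiproliferative gene Btg2 by 0.03 ± 0.08. Ier2 resembled Egr1 in its arrays, lowest on ethanol array 1 at 7.04 and highest on ethanol array 3 at 7.44.

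Further genes of the activity pathway gave 0 calls in limma, too. Of 25 measured genes from a second list of immediate early genes, 15 were higher and 10 lower in ethanol (median 0.02), but 9 were higher and 16 lower under quantile normalization, 8 and 17 after cyclic loess, and 18 and 7 after median centring. At an unadjusted p under 0.05 there were 0. Those with the smallest p were Rheb, the GTPase that activates mTORC1, at 0.15 ± 0.08, Trib1 at 0.17 ± 0.12 and Sertad1 at 0.10 ± 0.08. Unlike 7 of the 33 members, 0 of these 25 genes ranged over more than 1. Of 18 late activity-induced genes, 10 were higher and 8 lower (median 0.01), and 1 passed an unadjusted p of 0.05, Baz1a, a chromatin remodelling subunit. Baz1a was at 6.27, 6.39 and 6.47 in ethanol, against 6.50, 6.6 and 6.71 in saline (-0.22 ± 0.09, unadjusted p = 0.0445, adjusted p = 0.857 in limma). Penk, the enkephalin precursor, was at 0.20 ± 0.11 and Rasgrp1 at 0.14 ± 0.08.

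Upstream of the members, 15 of 16 measured kinase and phosphatase genes were higher in ethanol (median 0.08), but 11 of 16 were under quantile normalization and 9 of 16 after cyclic loess. After median centring 15 of 16 were higher again. Of all 22180 genes, 12690 were higher as deposited and 15646 after median centring. Ppp3cb, a catalytic subunit of the calcium-dependent phosphatase calcineurin, was the 1 gene of this list with an unadjusted p under 0.05. It was at 11.10, 11.22 and 11.12 in ethanol, against 10.96, 10.92 and 10.99 in saline, for a difference of 0.19 ± 0.07 (unadjusted p = 0.0382, adjusted p = 0.857 in limma). Camk4, the nuclear kinase that phosphorylates CREB, was at 0.16 ± 0.07 and its activator Camkk2 at 0.14 ± 0.07, both with ethanol arrays above saline arrays. The 22 measured genes of upstream transcription factors and their coactivators had 14 higher and 8 lower (median 0.03), but 10 and 12 under quantile normalization, 9 and 13 after cyclic loess, and 18 and 4 after median centring. Their smallest p values belonged to Ep300 (0.09 ± 0.07), Rela (0.10 ± 0.09) and Nfatc2 (-0.09 ± 0.08). Of 4 calcium entry genes 3 were higher, but 1 was under quantile normalization and after cyclic loess, and 4 were after median centring. Cacna1c, the L-type channel subunit that couples to CREB, was at 0.14 ± 0.07 in the values as deposited, Grin2a at -0.03 ± 0.08 and Cacna1d at 0.02 ± 0.07.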

How the data were processed

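RNA from 6 pools of mouse tissue was measured on Affymetrix 2.0 whole-transcript arrays. The authors deposited 1 table of log2 values, 41345 rows by 6 arrays, already summarized; their span and similar medians fit a log2 scale. Background correction, summarization and normalization are not given in the sources used here. The build was mm10, per the submitters' processing notes. Rows were named through the platform's annotation (23521 with 1 gene, 1814 with several, 16010 unnamed here), and positions and promoters from RefSeq GRCm38.

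Every row was fitted with limma 3.58.1 in R 4.3.3 (lmFit, eBayes, ethanol minus saline, two-sided, no filter), and the Benjamini-Hochberg adjustment, at 0.05, covered the whole table. Residual degrees of freedom were 4 and prior ones 2.94, and the number of arrays limits its precision. The code was tested on simulated data. An exact permutation test of 3 arrays against 3 cannot go below 0.1.

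The members and lists were chosen with earlier results of these data known. Array values were given for the 10 members with the smallest p, the 5 with the widest range and 8 common activity reporters, and in the other lists the 3 genes with the smallest p were named; Egr4 and Nr4a3 were added after their values were seen. Same-numbered arrays did not deviate together (correlations of deviations 0.101, -0.0564 and 0.0380), so the numbers were not taken as pairs. Fos, Npas4, Nr4a1 and Dusp1, however, were low on array 1 of both groups, and an effect of the array number on them was not tested. Alternatives covered scaling, prior, filters, array weights, block and arrays left out.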

Additional observations from a re-analysis of the deposited data

How the results depend on the processing

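The count of members called stayed at 0 in every setting run, with a smallest adjusted p of 0.515 in limma; over all rows it was 0, except 1 row called without saline replicate 3 (0 to 1 leaving out 1 array; 0 at an adjusted p under 0.1). The fit with the replicate block called 0 members and 0 rows, and left 1 member with an unadjusted p under 0.05. The median member difference moved less than the spread between arrays, from -0.06 to 0.0050 leaving out 1 array. Members at an unadjusted p under 0.05 numbered 0 to 2 lower and 0 to 1 higher leaving out 1 array, and 0 lower after median centring. Median centring gave 16 members higher and 17 lower, and 15646 genes higher and 6534 lower against 12690 and 9490 as deposited. The ranges of Fos, Npas4, Nr4a1 and Dusp1 over arrays were 1.24 to 1.58 under the 3 other scalings, a check added after these values were seen.

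Of 559 member values under 17 settings, 46 changed sign, in 17 genes, all of them uncalled. The cause was not tested. The prior, row filter and replicate block settings leave every difference as it was, so no sign could change there. Taking the mean of all rows of a gene could move Dusp6 and Tiparp alone. The 559 values therefore include many that could not change, and the share understates how readily signs moved. Quantile normalization put Fosb at 0.016, Fosl2 at -0.0082, Egr1 at -0.027, Dusp4 at 0.017 and Dusp6 at -0.030. Cyclic loess put them at 0.0072, -0.012, -0.030, 0.0045 and -0.030. Median centring put Fosb at 0.013 and Dusp4 at 0.022, and array weights put Egr1 at -0.0095 and Dusp6 at -0.0037. Without ethanol array 2 and saline array 2 together, Fosb was at 0.017, Nr4a1 at 0.11, Klf2 at 0.027, Homer1 at -0.075, Dusp1 at 0.017, Dusp4 at 0.041, Dusp6 at -0.17 and Tiparp at -0.015. Leaving out 1 array gave Fos -0.63 to 0.015 and Nr4a1 -0.53 to 0.14, both above 0 without saline array 2, and Nr4a1 and Dusp1 also without ethanol array 1. It gave Dusp1 -0.39 to 0.12, Nr4a2 -0.25 to 0.40, Nr4a3 -0.23 to 0.29, Egr1 -0.13 to 0.12, Dusp6 -0.092 to 0.14, Dusp4 -0.059 to 0.015, Fosb -0.058 to 0.0095, Fosl2 -0.044 to 0.084, Homer1 -0.018 to 0.12, Ier2 -0.16 to 0.047, Klf4 -0.036 to 0.11, Btg2 -0.015 to 0.075 and Nptx2 -0.027 to 0.026.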
